A study of Homo sapiens with 12 samples.

Results

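Zinc finger genes were taken from the genes that responded to lipopolysaccharide (LPS) in human THP-1 macrophages. A gene entered when its symbol began with ZNF, ZBTB, ZSCAN or ZKSCAN, or with ZFP and a number, and when it was listed as responding to LPS in wild-type cells, in NFKB1 S80A cells, or in both. The RNA-binding ZFP36 family was left out, which removed ZFP36 and ZFP36L1. This gave 98 of the 3281 listed genes, of which 60 stood in the wild-type table, 82 in the S80A table and 44 in both. A gene was listed when the authors' adjusted p-value was under 0.01 and the authors' log2 fold change exceeded 1 in size, so zinc finger genes that did not respond in either genotype were not analysed here.

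THP-1 is an established monocytic leukaemia line that becomes macrophage-like when treated with phorbol myristate acetate (PMA). All cells received PMA at 25 ng/ml for 72 hr and were rested for 4 days before LPS at 10 ng/ml for 3 hr or no LPS (0 hr). One genotype was wild type, and the other carried the S80A form of NFKB1, with an alanine in place of the serine at residue 80 of p50, the NF-κB subunit that this gene encodes. The 4 groups of 3 libraries were therefore wild type at 0 hr, wild type at 3 hr, S80A at 0 hr and S80A at 3 hr. The labels do not state how the edit was made, whether the edited cells are 1 clone and whether replicate libraries came from separate cultures. The p-values below therefore reflect the spread among these libraries alone, and that spread may be technical.

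Proteins with C2H2 zinc fingers form the largest family of human transcription factors. Many ZNF and ZFP proteins carry a KRAB domain, which recruits the corepressor TRIM28 and, through it, the histone methyltransferase SETDB1 to silence transposable elements and genes, and their genes lie in clusters, many on chromosome 19. ZBTB proteins carry a BTB domain that pairs subunits and recruits corepressors, and ZSCAN and ZKSCAN proteins carry a SCAN domain for pairing with one another. In macrophages, LPS acts through the receptor TLR4 to release NF-κB dimers into the nucleus, among them those with p50.

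The libraries held 1924562 to 5789918 reads on the listed genes. Values are scaled reads, that is reads divided by 1 size factor per library, and are not corrected for gene length. On log2 values of all listed genes, the first principal component separated 0 hr from 3 hr (71.1% of the variance) and the second separated the genotypes (17.6%). On the second component S80A replicate 1 lay nearest to wild type at both times, at 16.7 against 32.7 and 39.0 at 0 hr and at 16.9 against 41.3 and 46.7 at 3 hr, while wild-type libraries lay between -40.4 and -25.0. NFKB1 itself ranged from 791 to 987 scaled reads in wild type and from 760 to 1062 in S80A at 0 hr, which does not check a point edit. Of 12 monocyte and macrophage markers, 3 were listed in wild type, where CD14 and CD163 fell and CEBPB rose. CD14 averaged 2489 ± 180 scaled reads at 0 hr in wild type and 3995 ± 2024 in S80A (SD, n = 3), and 875 ± 194 and 1479 ± 396 at 3 hr. Of the T cell markers IL7R rose, of the B cell markers CD79B fell, and no epithelial, fibroblast or endothelial marker was listed; the remaining markers are not in the tables. The part of these markers in the zinc finger results was not tested.

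Promoters of 4 genes are shown, chosen after the motif search among genes with a match and a clear difference between conditions: ZNF697 rose strongly in both genotypes, ZNF189 rose more in S80A cells, and ZNF385B and ZSCAN31 differed between genotypes at both times. Each run is the 250 bases before the RefSeq start on GRCh38.p14, read 5′ to 3′ on the strand of the gene. Capitals mark matches to the κB consensus on either strand, except in ZNF189, where they mark the reverse complement of the core of the interferon-stimulated response element (ISRE), 2 copies of GAAA that are 2 bases apart. The runs are chr1:119648267-119648516 on the minus strand for ZNF697, chr9:101398601-101398850 on the plus strand for ZNF189, chr2:179861613-179861862 on the minus strand for ZNF385B and chr6:28356272-28356521 on the minus strand for ZSCAN31, in which 2 overlapping matches share the capitals.
ZNF697: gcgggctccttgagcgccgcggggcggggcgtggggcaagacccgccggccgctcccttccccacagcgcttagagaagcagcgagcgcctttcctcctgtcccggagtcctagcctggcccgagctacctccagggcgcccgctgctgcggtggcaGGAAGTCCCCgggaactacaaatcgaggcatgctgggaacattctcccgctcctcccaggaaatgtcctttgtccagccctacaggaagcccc
ZNF189: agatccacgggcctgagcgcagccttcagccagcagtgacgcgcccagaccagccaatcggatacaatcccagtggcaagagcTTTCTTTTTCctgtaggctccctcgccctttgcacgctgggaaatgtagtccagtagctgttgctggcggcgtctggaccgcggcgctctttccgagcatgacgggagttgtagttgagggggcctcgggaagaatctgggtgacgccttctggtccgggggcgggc
ZNF385B: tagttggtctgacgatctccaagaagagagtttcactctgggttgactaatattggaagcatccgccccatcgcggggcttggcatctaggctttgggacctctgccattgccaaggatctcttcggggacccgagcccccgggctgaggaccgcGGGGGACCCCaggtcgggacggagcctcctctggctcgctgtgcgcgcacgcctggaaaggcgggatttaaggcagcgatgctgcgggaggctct
ZSCAN31: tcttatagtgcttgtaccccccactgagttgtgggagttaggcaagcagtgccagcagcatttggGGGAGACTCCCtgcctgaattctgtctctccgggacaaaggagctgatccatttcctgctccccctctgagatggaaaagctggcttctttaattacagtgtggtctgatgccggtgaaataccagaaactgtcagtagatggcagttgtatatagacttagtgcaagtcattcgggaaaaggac

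Promoter windows (250 bases before to 50 after the start) were matched for 79 of the 98 genes and searched on both strands. The κB consensus matched 14 of the 79 (17.7%), against 10.8% of all 27305 promoters in the table. It matched 3 of 15 genes that rose, ZBTB11-AS1, ZNF101 and ZNF697, and 11 of 64 that fell, ZNF385B and ZSCAN31 among them. The ISRE core matched ZNF189 only (1.27%, against 3.65% of all promoters), and the AP-1 motif TGANTCA matched ZNF460 only (1.27%, against 7.76%). A match describes the letters of these windows and not a bound site.

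Zinc finger genes mostly fell after LPS, in both genotypes. In wild-type cells 11 rose and 49 fell, so 18.3% of the listed zinc finger genes rose, against 61.7% of all 2335 listed genes, of which 38.3% fell. In S80A cells 17 rose and 65 fell, so 20.7% rose, against 60.4% of all 2508, of which 39.6% fell. Of the 44 listed in both genotypes, 9 rose in both, 35 fell in both and none changed direction. The falls were of ordinary size, with a median log2 change of -1.34 in wild type and -1.43 in S80A, against -1.47 and -1.45 for all genes that fell. Changes beyond 2 on the log2 scale were found for 10 genes in wild type and 13 in S80A. These counts are the authors' calls, which the choice of genes used, and carry no test of their own here. Library factors computed with TMM from the listed genes lowered the median LPS change of all listed genes by 0.61 in each genotype. Such a shift can only deepen falls. Of the rises, 9 of 11 passed limma with these factors at a Benjamini-Hochberg adjusted p of 0.05 in wild type (not ZNF101 and ZNF620) and 11 of 17 in S80A (not ZBTB11-AS1, ZBTB17, ZNF107, ZNF140, ZNF460 and ZNF609). No rise changed sign. TMM takes most genes as unchanged, whereas all these genes were listed as responding to LPS, so the shift may come from the list itself. The retest used the libraries that chose the genes, so it shows only how the calls depend on the factors.

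**Figure D1:**
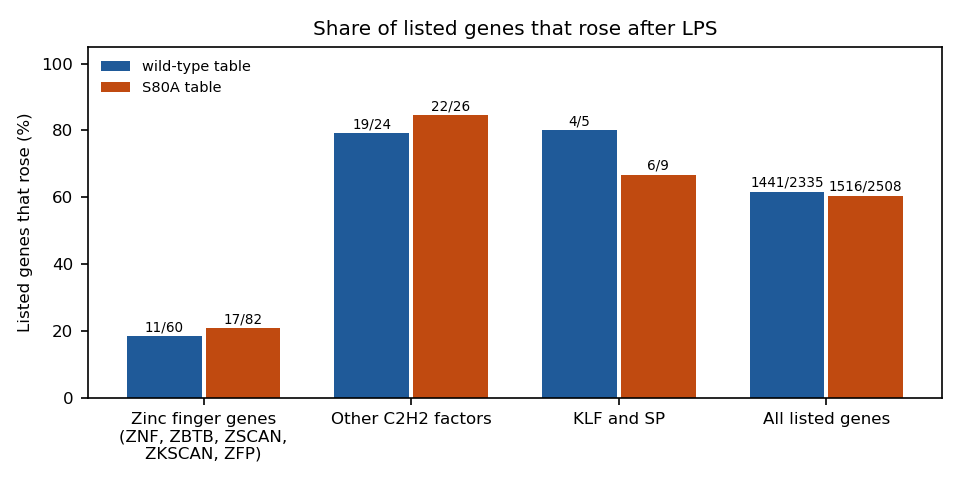
Share of listed genes that rose after LPS (y axis, %) in the wild-type table and the S80A table, for 4 sets of genes, with the number that rose over the number listed above each bar. The zinc finger genes chosen by symbol stand at 18.3% and 20.7%, against 61.7% and 60.4% of all listed genes.

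Other zinc finger factors, whose names do not follow the rule, were counted beside the 61.7% and 60.4% of all listed genes that rose. Of 83 other C2H2 transcription factors, 19 rose and 5 fell in wild type, and 22 rose and 4 fell in S80A. They include ZEB2, IKZF1, HIVEP2 and HIVEP3. Of 26 KLF and SP genes, 4 rose and 1 fell in wild type, and 6 rose and 3 fell in S80A. Partners of KRAB and BTB proteins were counted in the same way. Of 25 gene symbols of the KRAB corepressor machinery, FAM208A and TASOR being symbols of the same gene, 0 rose and 1 fell in wild type. In S80A 1 rose and 2 fell, the listed members being DAXX, EHMT2 and UHRF1. Of 27 BTB corepressors and partners, 3 rose and 1 fell in wild type, and 3 rose and 2 fell in S80A, the listed members being BCL6, HDAC9, BACH1, HDAC5, BCORL1 and BACH2.

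By class, the split was a matter of few genes outside the ZNF class, and differences between classes were not tested. ZBTB genes had 3 that rose and 2 that fell in wild type and 5 of each in S80A. All 5 ZFP genes and both ZSCAN or ZKSCAN genes of the wild-type table fell, as did all 4 and all 3 of those in the S80A table. ZNF genes that encode protein gave 7 rises and 38 falls in wild type and 9 and 49 in S80A. Transcripts that are antisense or pseudogenes gave 0 rises and 2 falls in wild type, and 2 rises (ZBTB11-AS1 and ZNF674-AS1) and 4 falls in S80A. The strand setting of the counting is not stated in the labels or notes, so reads of an antisense transcript and its partner may not be told apart, and near-identical paralogs may share reads.

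Most of the listed genes in the clusters of chromosome 19 fell. Chromosome 19 held 29 of the 98 genes (29.6%), against 4.93% of the 2819 other listed genes with a position, and against 43.7% of the 602 protein-coding genes of GENCODE release 29 that match the rule. On chromosome 19, 1 gene rose and 13 fell in wild type, and 2 rose and 25 fell in S80A, while elsewhere 10 rose and 36 fell in wild type, and 15 rose and 40 fell in S80A. The largest cluster, with gaps under 1 Mb, spans chr19:36334453-37692337 (GRCh38) and holds ZFP14, ZNF566, ZNF850, ZNF790, ZNF420, ZNF570 and ZFP30, of which 6 of 6 listed in wild type and 6 of 6 in S80A fell. A cluster at chr6:27374615-28369177 holds ZNF391, ZNF184, ZKSCAN4, ZSCAN31 and ZKSCAN3, and there 2 of 2 fell in wild type and 4 of 4 in S80A. On chromosome 16, the neighbours ZNF720 and ZNF267 were both listed as rising in wild type, and ZNF720 was not listed in S80A. The neighbours ZNF205 and ZNF174, and ZNF48 and ZNF768, on the same chromosome were listed only as falling.

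Among the genes that rose, ZBTB10, a BTB protein known to repress genes of SP transcription factors, was the most strongly induced. It measured 225, 208 and 215 scaled reads in wild type at 0 hr and 4084, 2902 and 2721 at 3 hr, and 239, 217 and 396 in S80A at 0 hr and 6638, 3750 and 3714 at 3 hr. Every 3 hr library lay far above every 0 hr library, and the genotypes overlapped at 0 hr and at 3 hr. The ratio of group means was 15 in wild type and 16.6 in S80A, and the authors' deposited table gives log2 changes of 3.81 and 3.96.

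ZNF697, whose promoter carries the κB match shown above, measured 150, 154 and 165 scaled reads in wild type at 0 hr and 2376, 1951 and 2090 at 3 hr. In S80A cells it measured 196, 358 and 669 at 0 hr and 4649, 3007 and 3482 at 3 hr. Its S80A libraries lay above every wild-type library at both times, but at 0 hr they spread widely. The genotype difference in log2 was 1.20 ± 0.45 (SE) at 0 hr (limma, Benjamini-Hochberg adjusted p = 0.098) and 0.78 ± 0.23 at 3 hr (adjusted p = 0.031, and 0.0035 to 0.105 over 14 alternatives).

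ZNFX1, a helicase that senses viral RNA and is not a sequence-specific transcription factor although its name follows the rule, was abundant. It measured 1412, 1531 and 1508 scaled reads in wild type at 0 hr and 10450, 12660 and 12120 at 3 hr, and 1895, 2615 and 1900 in S80A at 0 hr and 16480, 17520 and 14010 at 3 hr. Its S80A libraries were the higher at both times without overlap, yet the differences of 0.51 ± 0.16 and 0.45 ± 0.20 (SE, log2) did not pass limma (Benjamini-Hochberg adjusted p = 0.068 and 0.11). The BTB gene ZBTB43 measured 531, 493 and 521 in wild type at 0 hr and 1724, 1778 and 1748 at 3 hr, and 620, 787 and 873 in S80A at 0 hr and 3719, 3915 and 2960 at 3 hr. At 3 hr its S80A libraries all exceeded its wild-type libraries, by 1.00 ± 0.20 in log2 (limma, Benjamini-Hochberg adjusted p = 0.0068), and this call held under all 14 alternatives.

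The other genes that rose in both genotypes were ZNF107, ZNF267, ZNF140, ZNF620 and ZNF101, with log2 changes in the authors' deposited table from 1.07 for ZNF101 to 1.42 for ZNF107 in wild type and from 1.19 for ZNF140 to 1.83 for ZNF267 in S80A. ZNF101, a KRAB gene on chromosome 19, measured 184, 159 and 147 scaled reads in wild type and 107, 92.3 and 106 in S80A at 0 hr, and 429, 295 and 316 against 445, 338 and 302 at 3 hr. The genotypes were apart before LPS, with S80A the lower, and overlapped after it. The log2 difference at 0 hr was -0.68 ± 0.14 (SE; limma, Benjamini-Hochberg adjusted p = 0.019, and 0.0126 to 0.0640 over 14 alternatives). The difference of the LPS response between genotypes did not pass limma (0.74 ± 0.30, adjusted p = 0.12).

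**Figure D2:**
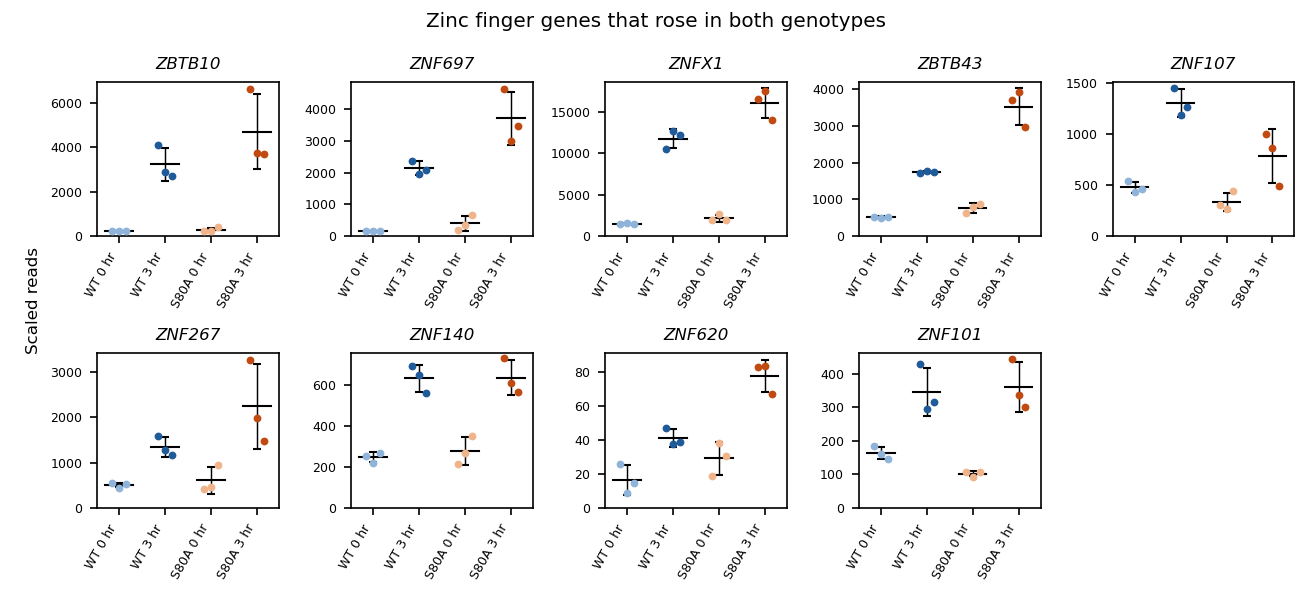
Scaled reads (y axis, linear, its own range in each panel) of the 9 zinc finger genes that rose in both genotypes, with 1 point per library, the mean of 3 libraries as a line and the SD as a bar. In each gene the 3 hr libraries of a genotype sit above its 0 hr libraries, as for ZBTB10, where the means are 216 and 3236 in wild type.

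ZBTB21 and ZNF720 rose in the wild-type table only, and 8 genes rose in the S80A table only: ZBTB38, ZBTB5, ZBTB17, ZNF189, ZNF460, ZNF609, ZBTB11-AS1 and ZNF674-AS1. ZBTB17 encodes MIZ1, a partner of MYC. It measured 404, 450 and 392 scaled reads at 0 hr and 745, 807 and 789 at 3 hr in wild type, and 405, 477 and 378 at 0 hr and 752, 948 and 890 at 3 hr in S80A. The 2 genotypes overlapped at each time although only 1 table lists the gene.

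Among the genes that fell, ZNF114 and ZNF280A had large changes in both genotypes. ZNF114 measured 111, 78.0 and 82.3 scaled reads in wild type at 0 hr and 31.7, 12.5 and 10.7 at 3 hr, and 137, 130 and 138 in S80A at 0 hr and 15.7, 13.8 and 16.8 at 3 hr. The authors' deposited table gives log2 changes of -2.24 and -3.02, and at 3 hr the genotypes overlapped. ZNF589, a KRAB gene first described in blood stem cells, measured 363, 419 and 415 in wild type at 0 hr and 64.6, 108 and 110 at 3 hr, and 312, 302 and 218 in S80A at 0 hr and 81.8, 66.7 and 64.7 at 3 hr.

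ZNF395, linked to the response to hypoxia, measured 158, 182 and 170 scaled reads in wild type at 0 hr and 57.5, 49.8 and 49.2 at 3 hr, and 87.6, 184 and 138 in S80A at 0 hr and 23.6, 28.8 and 40.8 at 3 hr. At 3 hr its S80A libraries lay below every wild-type library. In the authors' deposited table, ZNF74 changed by -1.5 in wild type and -1.68 in S80A on the log2 scale, and ZNF33B by -1.48 and -1.41. The same table gives -1.34 and -1.91 for the pseudogene ZNF252P, and -2.81 and -2.22 for the pseudogene ZNF815P.

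The ZFP genes had log2 falls between 1 and 2. ZFP64, known as an activator of the KMT2A (MLL) promoter in leukaemia with MLL fusions, measured 291, 340 and 276 scaled reads in wild type at 0 hr and 84.6, 114 and 120 at 3 hr, and 277, 254 and 261 in S80A at 0 hr and 66.2, 108 and 112 at 3 hr. Wild type and S80A ranged over much the same values at 3 hr. In the authors' deposited table, ZFP14 changed by -1.56 in wild type and -1.65 in S80A on the log2 scale, ZFP30 by -1.26 and -1.57 and ZFP69 by -1.18 and -1.23, while ZFP92 changed by -1.26 in wild type and was not listed in S80A. ZKSCAN3, a repressor of autophagy genes, measured 76.2, 38.6 and 48.4 in wild type at 0 hr and 17.6, 14.5 and 20.3 at 3 hr, and 41.8, 32.6 and 27.3 in S80A at 0 hr and 11.2, 12.7 and 7.19 at 3 hr. Its 3 hr libraries all lay below its 0 hr libraries.

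Of the ZBTB genes that fell, ZBTB47 did so in both genotypes, and the authors' deposited table gives -1.14 and -1.05 for it on the log2 scale. ZBTB4, which binds methylated DNA, measured 966, 1034 and 975 scaled reads in wild type at 0 hr and 491, 506 and 512 at 3 hr, and 1760, 1472 and 1391 in S80A at 0 hr and 442, 528 and 482 at 3 hr. S80A cells were the higher before LPS, and the genotypes overlapped after it. The log2 difference at 0 hr was 0.63 ± 0.13 (SE; limma, Benjamini-Hochberg adjusted p = 0.021, and 0.00148 to 0.0799 over 14 alternatives). The difference of the LPS response between genotypes did not pass limma (-0.69 ± 0.23, adjusted p = 0.071).

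Many genes listed in 1 table also responded in the other genotype. Of the 38 genes listed in S80A only, 37 had the same sign in wild type, and 27 also passed limma there in that direction (Benjamini-Hochberg adjusted p under 0.05; 71.1%, against 65.3% of all genes listed in S80A only). Of the 16 listed in wild type only, 15 had the same sign in S80A and 8 passed (50%, against 38.6% of all genes listed in wild type only). The genes nearest the listing limit, just inside it, were ZNF467 (-1.01) and ZNF740 (-1.02) in wild type and ZBTB14 (-1.01) and ZNF521 (-1.01) in S80A, by the authors' deposited table. Among unlisted genes with a limma log2 difference under 1 in size, the nearest were ZNF318 (-0.99) and ZBTB4 (-0.98) in wild type and ZNF219 (-0.97) and ZBTB21 (0.95) in S80A. Other unlisted genes lay beyond 1 by limma. These were ZNF30 (-1.27) and ZNF542 (-1.05) in wild type, and ZNF556 (-1.87), ZNF703 (-1.25), ZNF391 (-1.06) and ZNF251 (-1.02) in S80A. The authors' values for unlisted genes are not known here.

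**Figure D3:**
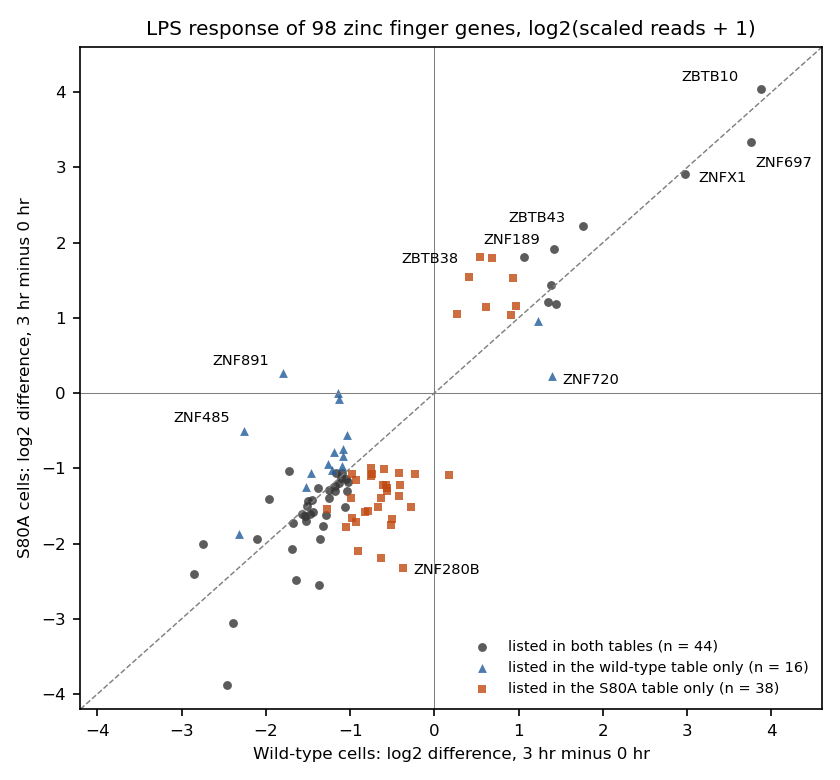
LPS response of each of the 98 zinc finger genes, as the mean difference of log2(scaled reads + 1) between 3 hr and 0 hr, in wild-type cells (x axis) and S80A cells (y axis), coloured by the table that lists the gene. Most genes lie in the lower left, with the 9 that rose in both genotypes at the upper right and the dashed line marking equal response.

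Without LPS, 20 of the 98 zinc finger genes differed between genotypes, 12 higher and 8 lower in S80A (20.4%, against 30.7% of all 3281 listed genes; limma, Benjamini-Hochberg adjusted p under 0.05). By direction these are 12.2% and 8.16%, against 20.1% and 10.6%. With TMM factors, which lowered the median difference of all genes by 0.18, the split was 7 higher and 14 lower. At 3 hr, 29 genes differed, 13 higher and 16 lower in S80A (29.6%, against 47% of all listed genes; 29.2% of all were higher and 17.7% lower). With TMM factors, which lowered the median by 0.20, 9 were higher and 21 lower. The median log2 difference of the 98 genes was 0.05 at 0 hr and 0.01 at 3 hr, against 0.19 for all genes at each time, and -0.14 and -0.18 with TMM factors. Leaving out 1 library left 7 to 23 calls at 0 hr (7 without S80A replicate 2; 10, 9 and 9 without wild-type replicates 1, 2 and 3) and 14 to 34 at 3 hr (14 without wild-type replicate 3). Without S80A replicate 1 there were 23 and 34. Listing in 1 genotype used its 0 hr and 3 hr libraries, which these tests use again, so it can favour a genotype difference. Of the genes higher in S80A at 0 hr, ZBTB4, ZNF280B, ZNF425, ZNF469, ZNF490, ZNF542 and ZNF561 were listed only as falling in S80A. ZNF114, ZNF280A and ZNF385B were listed in both genotypes, and ZNF703 and ZSCAN2 in wild type only. Of the genes lower in S80A at 0 hr, ZNF485 and ZNF658 were listed only as falling in wild type and ZBTB5 only as rising in S80A. The TMM factors rest on the same listed genes.

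Higher in S80A cells at both times were ZNF385B, ZNF703 and ZSCAN2. ZNF385B, whose promoter is shown above, measured 44.2, 64.3 and 46.8 scaled reads in wild type and 258, 452 and 384 in S80A at 0 hr, and 18.8, 9.34 and 10.7 against 65.0, 178 and 201 at 3 hr. At each time every S80A library exceeded every wild-type library. The ratio of means was 7.05 at 0 hr and 11.4 at 3 hr, and the log2 differences of 2.77 ± 0.27 and 3.32 ± 0.48 (SE) passed limma (Benjamini-Hochberg adjusted p = 0.0037 and 0.0025) and held under all 14 alternatives at each time.

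ZNF703, a transcriptional corepressor gene amplified in breast cancer, measured 178, 401 and 350 scaled reads in wild type and 964, 1147 and 1199 in S80A at 0 hr, and 68.1, 124 and 123 against 160, 713 and 849 at 3 hr. The groups did not overlap, but S80A replicate 1 lay close to wild type at 3 hr. The log2 differences were 1.91 ± 0.34 and 2.17 ± 0.65 (SE; limma, Benjamini-Hochberg adjusted p = 0.013 and 0.031, with ranges of 6.5e-08 to 0.0538 and 5.1e-05 to 0.0944 over 14 alternatives each). ZSCAN2 measured 120, 128 and 132 in wild type and 204, 237 and 224 in S80A at 0 hr, and 63.4, 58.1 and 49.2 against 129, 267 and 312 at 3 hr, so it fell in wild type while its S80A mean did not. At 3 hr the log2 difference was 1.94 ± 0.35 (limma, Benjamini-Hochberg adjusted p = 0.0052), whereas the difference of response did not pass (1.14 ± 0.40, adjusted p = 0.082). ZNF703 and ZSCAN2 were listed only as falling in wild type, which can favour their difference at 3 hr.

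Lower in S80A cells at both times were ZBTB12, ZNF788, ZNF850 and ZSCAN31. ZBTB12 was listed in both genotypes. The others were listed only as falling in S80A, through 3 hr values compared here, so the listing itself can favour their difference at 3 hr. ZNF788, annotated as a pseudogene on chromosome 19, measured 226, 201 and 223 scaled reads in wild type and 84.7, 58.2 and 75.6 in S80A at 0 hr, and 142, 192 and 154 against 40.4, 27.6 and 18 at 3 hr. No S80A library reached any wild-type library. Its log2 differences were -1.57 ± 0.17 and -2.52 ± 0.32 (SE; limma, Benjamini-Hochberg adjusted p = 0.0046 and 0.0018).

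ZNF850, also on chromosome 19, measured 239, 155 and 194 scaled reads in wild type and 85.7, 63.6 and 67.2 in S80A at 0 hr, and 181, 106 and 116 against 50.5, 17.2 and 26.4 at 3 hr. ZBTB12 measured 79.7, 113 and 88.7 against 53.8, 55.8 and 50.4 at 0 hr, and 31.7, 42.6 and 32.1 against 6.73, 5.75 and 14.4 at 3 hr. In both genes the genotypes were apart at each time, S80A being the lower. The log2 differences at 3 hr were -2.15 ± 0.42 for ZNF850 and -1.96 ± 0.35 for ZBTB12 (SE; limma, Benjamini-Hochberg adjusted p = 0.0065 and 0.0047), and both calls held under all 14 alternatives.

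ZNF280A and ZNF280B, neighbours in the immunoglobulin lambda region of chromosome 22 (chr22:22484421-22520270 for the pair), were higher in S80A cells before LPS. ZNF280A measured 20.8, 24.9 and 24.2 scaled reads in wild type and 128, 213 and 186 in S80A at 0 hr, and 1.18, 8.30 and 3.21 against 2.24, 17.2 and 26.4 at 3 hr. The genotypes were far apart at 0 hr, with a ratio of means of 7.54, and overlapped at 3 hr. At 3 hr the libraries held only 1 to 22 reads, and the ratio of means was 3.62. The difference of response did not pass limma (-1.42 ± 0.99, SE, Benjamini-Hochberg adjusted p = 0.34). The log2 difference at 0 hr was 2.84 ± 0.22 (SE; limma, Benjamini-Hochberg adjusted p = 0.0033) and held under all 14 alternatives.

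Of the 41 genes called at either time, 8 were called at both, 12 at 0 hr only and 21 at 3 hr only, and 57 were called at neither time. At 3 hr only, 10 were higher in S80A, among them ZBTB38, ZBTB43, ZNF609, ZNF189 and ZNF620. Lower were 11, among them ZNF18, ZNF445, ZNF544, ZNF70 and ZNF521. For ZNF521, an early haematopoietic zinc finger gene, the call held under 9 of 14 alternatives. Of these named genes, only ZBTB43 and ZNF620 were listed in both genotypes. The others were listed in S80A only, through the 3 hr values compared here, so the listing itself can favour their difference. ZNF609 measured 1121, 1135 and 987 scaled reads in wild type and 2016, 2669 and 2423 in S80A at 3 hr, and 902, 848 and 931 against 1274, 1176 and 969 at 0 hr. The genotypes were apart at both times, more widely after LPS. The log2 difference at 3 hr was 1.12 ± 0.20 (SE; limma, Benjamini-Hochberg adjusted p = 0.0049). Neither the difference at 0 hr (0.34 ± 0.14, adjusted p = 0.12) nor the difference of response (0.78 ± 0.26, adjusted p = 0.063) passed limma.

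**Figure D4:**
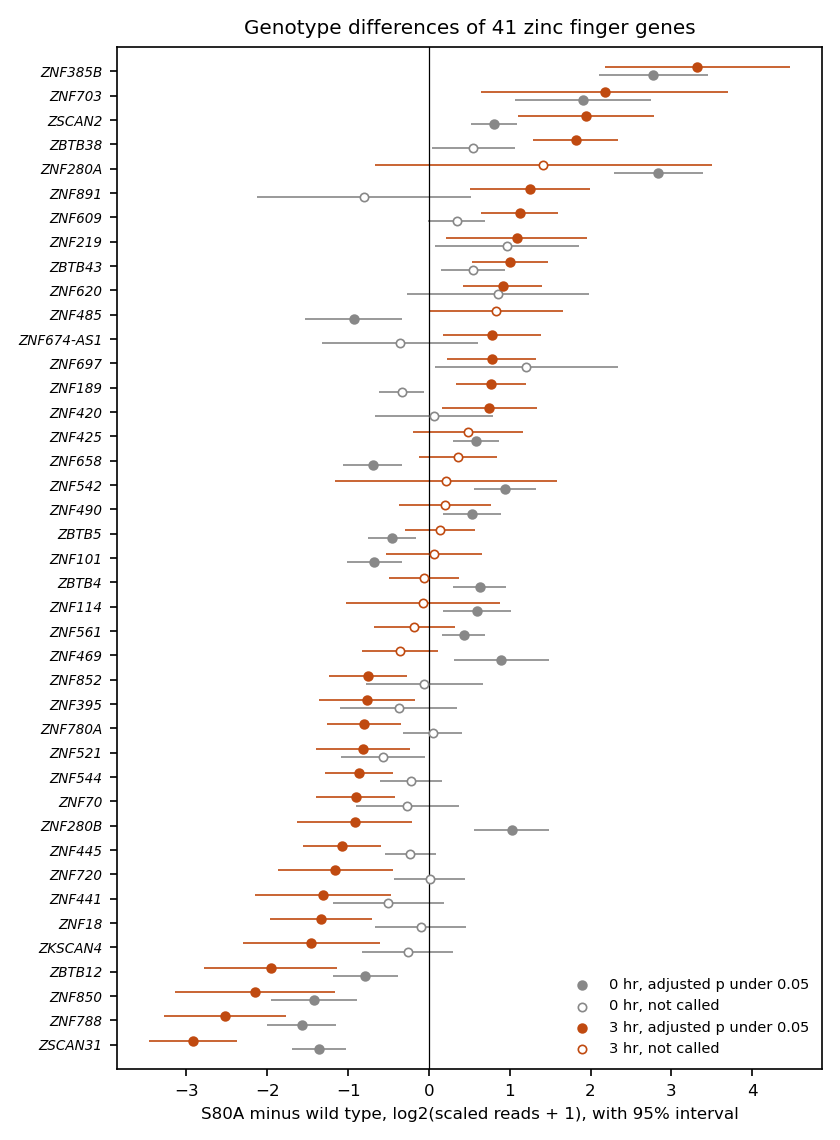
S80A minus wild type in log2(scaled reads + 1) (x axis), with the 95% interval from limma, at 0 hr and 3 hr for the 41 zinc finger genes called at either time; filled points passed an adjusted p of 0.05. ZNF385B is the highest at 3 hr (3.32) and ZSCAN31 the lowest (-2.92), and ZNF280B is called higher at 0 hr and lower at 3 hr.

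The LPS response itself differed between genotypes for 11 of the 98 genes, 5 with a higher and 6 with a lower log2 change in S80A (11.2%, against 14.1% of all listed genes, 7.19% higher and 6.95% lower; limma interaction term, Benjamini-Hochberg adjusted p under 0.05). None of the 44 genes listed in both tables was among them, against 7.55% of all genes listed in both. All 11 came from the 54 genes listed in 1 table (20.4%, against 20.1% of such genes overall), where the listing itself favours a difference. The median difference of response was -0.12 over the 98 genes, against 0.00039 over all. It was -0.09 over the 35 that fell in both genotypes and 0.06 over the 9 that rose in both. Leaving out 1 library left 3 to 15 calls, with 3 without wild-type replicate 3 of 0 hr, 4 without wild-type replicate 2 or 3 of 3 hr or S80A replicate 2 of 0 hr, 5 and 7 without wild-type replicates 1 and 2 of 0 hr, and 7 without S80A replicate 2 of 3 hr. Without S80A replicate 1 at both times there were 15.

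ZNF189, whose promoter carries the ISRE core match, rose more in S80A cells. It measured 676, 573 and 611 scaled reads in wild type at 0 hr and 1005, 1024 and 956 at 3 hr, and 504, 477 and 488 in S80A at 0 hr and 1548, 1798 and 1750 at 3 hr. S80A was below wild type before LPS and above it after, with no overlap at either time. The genotype difference did not pass limma at 0 hr (Benjamini-Hochberg adjusted p = 0.073) and passed at 3 hr (adjusted p = 0.013). The difference of the log2 response was 1.11 ± 0.22 (SE; limma, Benjamini-Hochberg adjusted p = 0.010) and held under all 20 alternatives.

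ZBTB38, which binds methylated DNA, measured 450, 452 and 483 scaled reads in wild type at 0 hr and 765, 591 and 677 at 3 hr, and 578, 593 and 903 in S80A at 0 hr and 2673, 2590 and 1929 at 3 hr. Its S80A libraries lay above its wild-type libraries at both times, with a ratio of means of 1.5 at 0 hr, where the difference did not pass limma (Benjamini-Hochberg adjusted p = 0.096), and 3.54 at 3 hr, where it did (adjusted p = 0.0017). The response differed by 1.26 ± 0.31 in log2 (SE; limma, Benjamini-Hochberg adjusted p = 0.024, and 0.00157 to 0.0643 over 20 alternatives).

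ZNF280B fell in S80A cells only by the tables. It measured 52.8, 57.1 and 54.0 scaled reads in wild type at 0 hr and 55.2, 30.1 and 43.9 at 3 hr, and 86.7, 125 and 130 in S80A at 0 hr and 19.1, 18.4 and 28.8 at 3 hr. S80A was the higher before LPS and the lower after it, with no overlap at either time. The response differed by -1.94 ± 0.37 in log2 (SE; limma, Benjamini-Hochberg adjusted p = 0.0083), a call held under all 20 alternatives.

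ZSCAN31 measured 31.2, 24.9 and 29 scaled reads in wild type at 0 hr and 17.6, 18.7 and 17.1 at 3 hr, and 11.0, 10.9 and 9.45 in S80A at 0 hr and 2.24, 1.15 and 1.20 at 3 hr. S80A was the lower at both times, and its 3 hr libraries held 1 or 2 reads each, so fitted log2 values depend on the added pseudocount of 1. With it, the genotype differences were -1.36 ± 0.13 and -2.92 ± 0.23 and the difference of response -1.56 ± 0.28 (SE; limma, Benjamini-Hochberg adjusted p = 0.0037, 0.00076 and 0.0060). The difference of response was no longer called with a pseudocount of 5 or with DESeq2 (adjusted p of 0.00092 to 0.0905 over 20 alternatives).

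ZNF469, the gene mutated in brittle cornea syndrome, measured 1332, 1224 and 925 scaled reads in wild type at 0 hr and 1307, 1410 and 1167 at 3 hr, and 2404, 2484 and 1632 in S80A at 0 hr and 923, 1149 and 962 at 3 hr. Wild type overlapped between times, whereas S80A was above it before LPS and below it after. The genotype difference of ZNF469 passed limma at 0 hr (Benjamini-Hochberg adjusted p = 0.039, held under 8 of 14 alternatives). At 3 hr it did not pass (-0.36 ± 0.20 in log2, SE, adjusted p = 0.18). ZNF445, a KRAB gene known to maintain genomic imprinting, measured 490, 410 and 424 in wild type at 0 hr and 411, 358 and 356 at 3 hr, and 374, 404 and 350 in S80A at 0 hr and 186, 150 and 200 at 3 hr. The genotypes overlapped before LPS and were apart after it.

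ZNF485 and ZNF658 fell in wild type and were not listed in S80A. ZNF485 measured 73.6, 56.3 and 65.3 scaled reads in wild type at 0 hr and 14.1, 12.5 and 11.8 at 3 hr, and 37.9, 41.1 and 24.1 in S80A at 0 hr and 39.2, 14.9 and 21.6 at 3 hr. ZNF658, a regulator of zinc homeostasis genes, measured 112, 107 and 123 in wild type at 0 hr and 59.9, 42.6 and 52.5 at 3 hr, and 66.7, 62.0 and 81.9 in S80A at 0 hr and 65.0, 66.7 and 65.9 at 3 hr. In both genes every S80A library lay below every wild-type library before LPS and above them at 3 hr. The genotype difference passed limma at 0 hr (Benjamini-Hochberg adjusted p = 0.038 for ZNF485 and 0.021 for ZNF658) and did not at 3 hr (adjusted p = 0.092 and 0.19). Both genes were listed through the wild-type libraries compared here, so the listing itself can favour these differences.

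**Figure D5:**
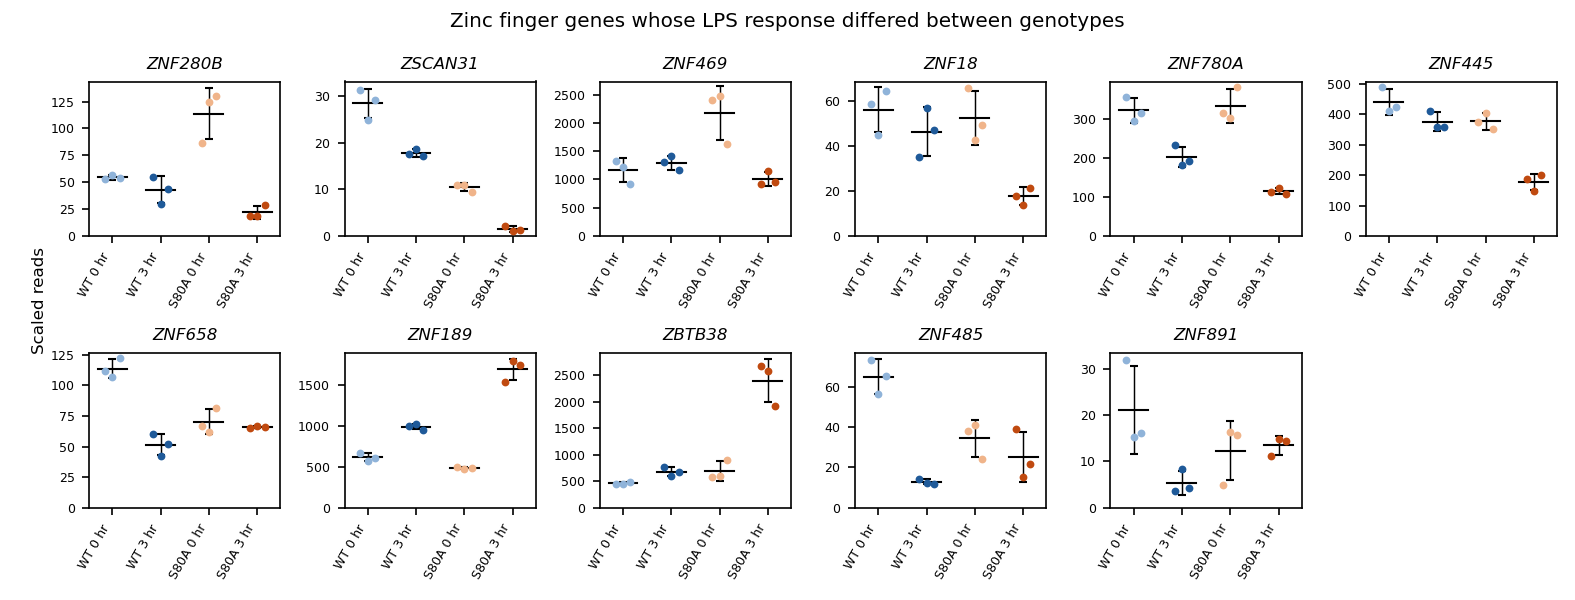
Scaled reads (y axis, linear, its own range in each panel) of the 11 zinc finger genes whose LPS response differed between genotypes, with 1 point per library, the mean of 3 libraries as a line and the SD as a bar. ZNF189 and ZBTB38 rose more in S80A, and ZNF280B, ZSCAN31, ZNF469, ZNF18, ZNF780A and ZNF445 had the lower log2 change in S80A.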

How the data were processed

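RNA from 12 THP-1 libraries was measured. Per the labels' protocols, poly(A) RNA went into stranded TruSeq libraries read from 1 end over 75 bases, with 20 M reads aimed at. Per the submitters' processing notes, the tools were DESeq2, HTSeq, HISAT, StringTie, Cuffdiff and FastQC and the build GRCh38, with no versions. The authors deposited 1 table per genotype with their log2 fold change, raw and adjusted p-values, and for each library a signal that is a read count divided by 1 size factor (100% of values whole to within 0.01 reads).

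The main tests were limma 3.58.1 on log2(scaled reads + 1) over all 3281 genes, with Benjamini-Hochberg adjustment at 0.05: S80A minus wild type in the 6 libraries of a time, and the interaction term over 4 groups. LPS responses are the authors' calls. edgeR 4.0.16 and DESeq2 1.42.0 on the recovered counts, other pseudocounts (0.5 and 5), a filter at a mean of 10 scaled reads, TMM factors, a replicate block and left-out libraries were alternatives, as was the LPS retest with TMM factors, chosen after seeing the data. The tests were checked on simulated data, with 100 genes changed by 1 in log2 and 100 by 2. Of changes of 1 in log2 they recovered 16% at 0 hr, 17% at 3 hr and 9% for the difference of response. Of changes of 2 they recovered 86%, 89% and 60%, with 6, 8 and 4 false calls among 3281 genes. A gene that was not called may therefore still differ. More genes were called in the data (1007, 1541 and 464 of all listed genes, in the same order), so these rates may not hold there. Deviations from group means were correlated between libraries of the same replicate number. For numbers 1 to 3, correlations between genotypes were 0.188, 0.245 and 0.259 at 0 hr and 0.153, 0.196 and 0.0640 at 3 hr. Across LPS they were 0.343, 0.207 and 0.153 in wild type and 0.299, 0.286 and 0.196 in S80A. Between unlike numbers, correlations between genotypes ranged from -0.228 to -0.00216 at 0 hr and from -0.255 to 0.147 at 3 hr. Across LPS, those between unlike numbers ranged from -0.27 to 0.156 in wild type and from -0.29 to 0.153 in S80A. Deviations from a mean of 3 libraries sum to 0, so like and unlike numbers are not independent. The main tests did not pair the libraries.

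Named genes were the up to 10 largest rises and falls per genotype with a mean of at least 50 scaled reads, up to 15 calls per genotype test, every call of the interaction, the most abundant genes of each class and those nearest the listing limit. Genes outside this rule, such as ZBTB17, were named after their values were seen. The genes and lists were chosen with earlier results of these data known. Positions come from GENCODE release 29, and promoters from RefSeq (GRCh38.p14).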

Additional observations from a re-analysis of the deposited data

Results flagged for a closer look

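The LPS response differed between wild-type and S80A cells for 11 zinc finger genes by the limma interaction term (Benjamini-Hochberg adjusted p under 0.05, 3 libraries per group). That is 11.2% of the 98 genes, against 14.1% of all listed genes. All 11 were listed in a single genotype, where the listing itself favours a difference. The change in S80A minus the change in wild type, in log2, was 2.06 for ZNF891 (adjusted p = 0.049), 1.76 for ZNF485 (0.027), 1.26 for ZBTB38 (0.024), 1.11 for ZNF189 (0.010) and 1.06 for ZNF658 (0.024). It was -1.94 for ZNF280B (adjusted p = 0.0083), -1.56 for ZSCAN31 (0.0060), -1.26 for ZNF469 (0.025), -1.23 for ZNF18 (0.046), -0.851 for ZNF780A (0.046) and -0.846 for ZNF445 (0.047). Over 20 alternatives the call held in all 20 for ZNF189 and ZNF280B, in 18 for ZSCAN31, 17 for ZNF469, 16 for ZNF485, 15 for ZBTB38 and 14 for ZNF658. It held in 10 for ZNF445 and ZNF780A and in 8 for ZNF18 and ZNF891, with adjusted p of up to 0.108, 0.107, 0.108 and 0.104. The alternatives used the libraries that chose the genes, so they show only how the calls depend on the processing. ZNF891 has few reads, with 3.52 to 32.0 scaled reads in wild type and 4.98 to 16.3 in S80A.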

How the results depend on the processing

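Genotype calls among the 98 zinc finger genes numbered 20 at 0 hr and 17 to 26 under alternatives that left out no library and no gene but those of low counts, 29 at 3 hr and 25 to 34, and 11 for the difference of response and 9 to 15. With the replicate block they were 18, 27 and 12, and the block moved no count of calls by over 1.5 times. With the block, ZBTB5, ZNF114, ZNF485, ZNF490 and ZNF561 at 0 hr and ZNF219, ZNF395 and ZNF521 at 3 hr were no longer called. Leaving out 1 library gave 7 to 23 calls at 0 hr, 14 to 34 at 3 hr, 3 to 15 for the difference of response, and 58 to 60 and 78 to 82 of the LPS calls in wild type and S80A, for which the genes were chosen. Restricted to genes in both tables the difference of response gave 0 calls. An absolute log2 change over 2 left 10 and 13 LPS responses. Over all alternatives, of the values of named and called genes, 196 of 266 at 0 hr, 305 of 364 at 3 hr and 156 of 220 for the difference stayed past the threshold, and 0 reversed. ZSCAN31 in S80A at 3 hr held 1 or 2 reads per library, and depth's part in lost calls was not tested.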
